A study of Rattus norvegicus with 14 samples.

Results

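The comparison of biphasic with epithelioid peritoneal mesotheliomas rested on 6 of the 14 arrays of the study. The members were chosen by the tissue label of each sample: 3 tumors were labelled biphasic and 3 epithelioid (1 of these with the spelling epitheloid). All 6 tumors came from male Wistar rats, a different rat for each tumor, and arose after 1 intraperitoneal injection of fibers. The biphasic tumors were induced by MWCNT D, MWCNT C and amosite asbestos, and the epithelioid tumors by MWCNT D, MWCNT B and amosite asbestos, where MWCNT stands for multiwalled carbon nanotube. The pair of tumors induced by MWCNT D and the pair induced by amosite are therefore matched by inducer, whereas the MWCNT C and MWCNT B tumors each have 1 type, so that for these the type and the inducer cannot be told apart. The other 8 arrays held 5 sarcomatoid tumors, used here for the estimate of spread and side by side, and 3 peritoneal tissues of control rats. The sample titles call these controls sham-treated, whereas the methods of the study call the control rats untreated. The values are microarray signals, given throughout as log2(signal + 1), in which a difference of 1 is a 2-fold difference.

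Mesothelioma is a cancer of the mesothelium, the cell layer that lines the body cavities. Pathologists divide it by the shape of the tumor cells: epithelioid tumors grow as sheets, tubules or papillae of polygonal cells, sarcomatoid tumors consist of spindle cells, and biphasic tumors hold both components. Epithelioid tumors as a rule keep more keratins, cell junction proteins and mesothelial proteins than sarcomatoid tumors. A sample of a biphasic tumor can hold either component in any proportion, and all 6 samples are bulk tissue with stroma, vessels and immune cells. In bulk tissue fewer cells of a type and less RNA per cell cannot be told apart.

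The 6 arrays were similar in overall brightness, with median signals from 135 to 155. Pearson correlations across all probe sets ranged from 0.901 to 0.958 between tumors of the same type and from 0.875 to 0.951 between a biphasic and an epithelioid tumor, so that these ranges overlapped. Among the 11 tumors, the first principal component (24.1% of the variance) placed the 5 sarcomatoid tumors between -69.19 and -24.15, the biphasic tumors at 20.9 (MWCNT D), 56.9 (MWCNT C) and -2.32 (amosite), and the epithelioid tumors at 34.0 (MWCNT D), 21.2 (MWCNT B) and 137 (amosite). Biphasic and epithelioid tumors were thus mixed on this axis. The amosite epithelioid tumor stood apart from the other 5. It also carried strong signals of pancreatic digestive enzymes: over 16 measured genes of pancreatic acinar cells its mean was 14.04, against 5.66 to 6.10 in the other 5 tumors, and these genes made up 5.24% of its whole signal. The MWCNT D sarcomatoid tumor had the same feature (list mean 13.33). For several differences below, the value without the amosite epithelioid tumor is given beside the value over all 6 tumors.

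**Figure D1:**
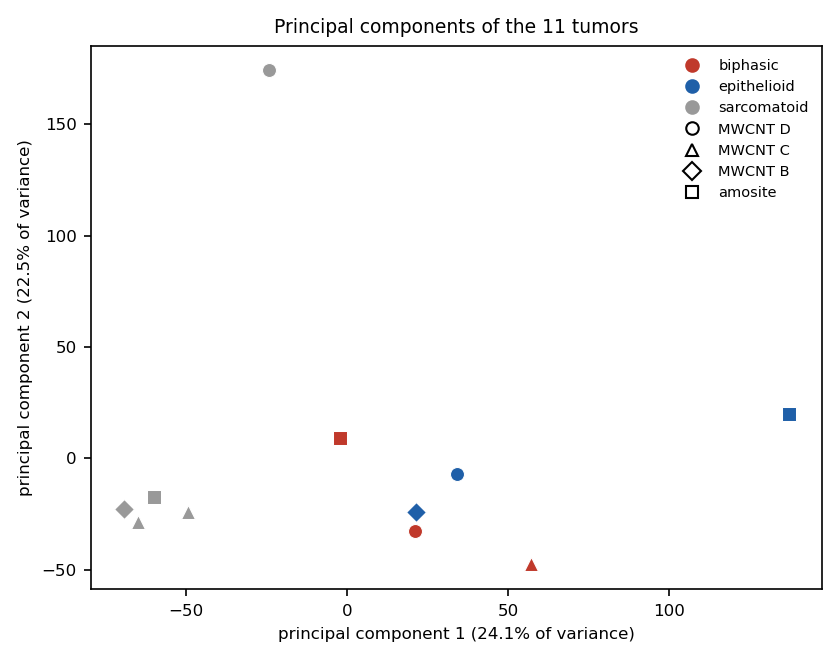
Principal components 1 and 2 of the 11 tumors, computed on log2(signal + 1) of all probe sets, in arbitrary units, with colour for tumor type and symbol for inducer. The biphasic and epithelioid tumors are mixed on component 1, the amosite epithelioid tumor lies at 137 on component 1, and the MWCNT D sarcomatoid tumor lies at 174 on component 2.

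No probe set passed the test between the types. The thresholds were a fold change over 2, up or down, with an adjusted p under 0.05, and 0 of 31042 probe sets (0.0%) reached both by moderated tests in limma with Benjamini-Hochberg adjustment. The smallest adjusted p rounded to 1. At an unadjusted p below 0.05 there were 1122 probe sets (3.61%), of which 455 also had a fold change above 2, 117 with the higher mean in biphasic and 338 in epithelioid tumors. The same contrast without moderation also called 0. Leaving out 1 tumor at a time gave 3 calls without the MWCNT D epithelioid tumor, 12 without the MWCNT B epithelioid tumor, 3 without the amosite biphasic tumor and 0 without any of the other 3. A call of this kind can come from leaving out the tumor least like the others of its type. Such calls are given below to describe single tumors, not as support for a difference between the types.

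The precision of the comparison is limited by the 3 tumors of each type, and the intervals also rest on the spread of the sarcomatoid tumors. An interval can therefore be wide for a gene that varied little within the 2 types compared, as for Msln. The 95% interval of a difference extended to either side by a median of 0.689 over all probe sets. For 16753 probe sets (54.0%) the whole interval lay within a 2-fold difference in either direction, and for the others a difference of 2-fold or more in at least 1 direction lay inside the interval. The median difference of all 14217 genes was 0.01, and 51.5% of them had the higher mean in biphasic tumors. Since 0 probe sets were called, differences below are given as measured values with their intervals, beside whether the 3 values of one type and the 3 of the other overlapped. All adjusted p of the genes described rounded to 1 in limma unless stated.

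Across all probe sets, values that did not overlap and differed more than 2-fold were higher in biphasic tumors for 154 probe sets (0.496%) and higher in epithelioid tumors for 308 (0.992%). Counted by gene, these were 81 (0.57%) and 145 (1.02%). Of these genes, 55 and 77 had a mean log2 signal of at least 8 in the higher group, and the 12 of smallest moderated p on each side are described next.

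Among the 12 leading genes with higher values in epithelioid tumors, Pnoc, the precursor of the neuropeptide nociceptin, had the largest difference. Its values were 4.18 (MWCNT D), 3.18 (MWCNT C) and 7.72 (amosite) in biphasic tumors and 11.59 (MWCNT D), 10.7 (MWCNT B) and 11.06 (amosite) in epithelioid tumors. The 3 epithelioid tumors were thus close together and all far above the biphasic tumors, of which the amosite tumor was the highest. The difference was -6.09 (95% interval -8.30 to -3.88), and it was -7.41 within the MWCNT D pair and -3.35 within the amosite pair. Since 2 of the biphasic signals were low, the difference was -5.21 with signals below a log2 value of 5 raised to it. The 5 sarcomatoid tumors reached at most 7.995 and the controls 5.66, so that the 3 epithelioid tumors had the highest Pnoc signals of all 14 samples. Without the amosite biphasic tumor, Pnoc passed the test (difference -7.44, limma adjusted p = 0.00982), as did 1 probe set of Brinp2 (difference -3.85, adjusted p = 0.00664) and 1 without a gene symbol. The tumor left out had the biphasic Pnoc value nearest the epithelioid tumors, and leaving it out lowers p. The difference of that probe set of Brinp2 over all 6 tumors was -2.35, but 0.10 with a floor at a log2 signal of 5.

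Mfap4, a protein of elastic fibers in the extracellular matrix, had little spread within either type. It measured 10.55, 10.88 and 10.69 in the MWCNT D, MWCNT C and amosite biphasic tumors and 12.3, 12.07 and 12.31 in the MWCNT D, MWCNT B and amosite epithelioid tumors, a difference of -1.52 (95% interval -2.49 to -0.56). Both types were tight and clearly separate. Zfp185, a LIM domain protein of the actin cytoskeleton, had values of 5.78, 7.08 and 7.45 against 8.73, 8.42 and 9.19 (difference -2.01), and Irag1, a target of cGMP-dependent protein kinase in smooth muscle, 6.62, 7.37 and 8.06 against 9.78, 8.65 and 9.54 (difference -1.97). In both genes the 3 epithelioid values lay above every sarcomatoid value, which reached 5.71 for Zfp185 and 7.54 for Irag1. Rasd1, a Ras-like GTPase that glucocorticoids induce, measured 6.10, 5.997 and 6.72 against 7.76, 8.24 and 9.94, a difference of -2.37 (95% interval -3.59 to -1.16), or -1.73 without the amosite epithelioid tumor. Deptor, an inhibitor of the kinase mTOR, differed by -1.43, and Cybrd1, a ferric reductase of iron uptake, by -1.21. Within the amosite pair Deptor differed by -0.36, less than 2-fold, and its sarcomatoid values reached 10.69. Axin2, a target gene and inhibitor of WNT signaling, measured 6.79, 7.41 and 7.14 in biphasic and 8.84, 7.85 and 9.54 in epithelioid tumors, a difference of -1.63 (95% interval -2.64 to -0.63). The sarcomatoid tumors had 7.525 to 9.015 for Axin2, which overlapped the epithelioid values and lay above every biphasic value. The MWCNT B epithelioid tumor was the lowest of its type in Axin2 and Cybrd1.

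**Figure D2:**
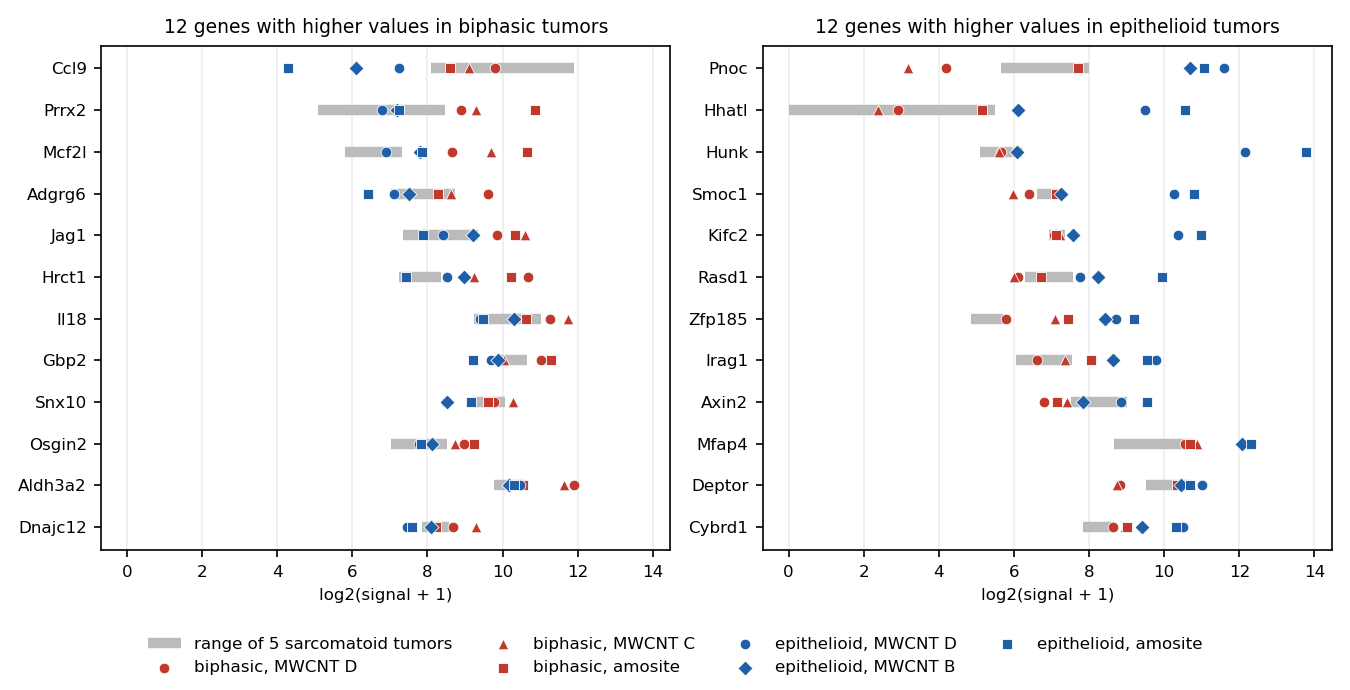
Log2(signal + 1) of the 12 leading genes with higher values in biphasic tumors (left) and the 12 with higher values in epithelioid tumors (right), ordered by the size of the difference, in each of the 3 biphasic (red) and 3 epithelioid (blue) tumors, with grey bars for the range of the 5 sarcomatoid tumors. The genes were selected for values that do not overlap, and the gap is widest for Pnoc, with a difference of -6.09.

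Several of these genes were high in only some epithelioid tumors. Hunk, a kinase related to AMPK, measured 12.16 in the MWCNT D and 13.78 in the amosite epithelioid tumor, but 6.08 in the MWCNT B epithelioid tumor and 5.67, 5.599 and 6.07 in the biphasic tumors. The MWCNT B tumor therefore lay just above the biphasic tumors, and the sarcomatoid tumors had 5.10 to 6.19. Smoc1, a secreted matrix protein that inhibits BMP signaling, had the same pattern with 10.25, 7.26 and 10.8 in the MWCNT D, MWCNT B and amosite epithelioid tumors against 6.41, 5.97 and 7.13 in the biphasic tumors. So did Kifc2, a kinesin motor protein, with 10.37, 7.58 and 10.99 against 7.07, 7.24 and 7.11. Hhatl, a relative of hedgehog acyltransferase, measured 9.49, 6.11 and 10.56 against 2.92, 2.38 and 5.14, and 12.12 to 12.24 in the controls, in which skeletal muscle genes were also high. Its difference was -5.24, or -3.67 with the floor at a log2 signal of 5. The other probe set of Hunk differed by -0.20 and that of Smoc1 by -3.25. In Hunk, Smoc1 and Kifc2 the MWCNT B epithelioid tumor lay nearest the biphasic values, so leaving it out lowers p. Without the MWCNT B epithelioid tumor, limma called 12 probe sets. The 1 higher in biphasic tumors was Myh13, a myosin (difference 2.81, adjusted p = 0.0158), whose highest signal in these tumors was 2.87, and with a floor at a log2 signal of 5 its difference was 0. The other 11 included Hunk (difference -7.19, adjusted p = 0.000525), Kifc2 (-3.54, adjusted p = 0.000493), Smoc1 (-4.02, adjusted p = 0.0103), and Msx2, a homeobox gene that BMP signaling induces (-8.32, adjusted p = 0.000493). Msx2 measured 12.74 and 14.48 in the MWCNT D and amosite epithelioid tumors, and 5.45 in the MWCNT B tumor against 5.63, 4.90 and 5.31 in the biphasic tumors. Nlgn1, a synaptic adhesion protein, had 10.54, 6.84 and 10.66 in the epithelioid and 7.77, 6.78 and 7.63 in the biphasic tumors. Both of its probe sets were among the 12 (differences -3.77 and -3.21).

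Another set was shared by the MWCNT B and amosite epithelioid tumors and low in the MWCNT D epithelioid tumor. Mmp7, matrilysin, is a matrix metalloproteinase made mainly by epithelial cells. It measured 14.86 in the MWCNT B and 14.85 in the amosite epithelioid tumor, and 4.35 in the MWCNT D epithelioid tumor, against 4.70, 4.78 and 4.30 in the biphasic tumors. Both high values were far above every other sample, since the sarcomatoid tumors had 4.27 to 4.96 and the controls 4.91 to 5.07. The difference over all 6 tumors was -6.76 (95% interval -11.66 to -1.86), and without the MWCNT D epithelioid tumor it was -10.27 (limma adjusted p = 2.82e-07). Lypd2 (difference -6.72, adjusted p = 0.0102) and Ugt2b7, a glucuronosyltransferase (-4.18, adjusted p = 0.000664), were the other 2 calls of that setting. Lypd2 had 3.01, 8.53 and 11.02 in the MWCNT D, MWCNT B and amosite epithelioid tumors and 3.00, 3.21 and 2.98 in the biphasic tumors. The biphasic signals of Lypd2 were low, so that the size of its difference is not fixed. Ugt2b7 had 6.45, 10.94 and 10.89 against 7.16, 6.69 and 6.36. In Mmp7, Lypd2 and Ugt2b7 the MWCNT D epithelioid tumor lay among the biphasic values, so leaving it out lowers p. Msx2, Nlgn1, Lypd2, Ugt2b7, Brinp2 and Myh13 were named after their values were seen.

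**Figure D3:**
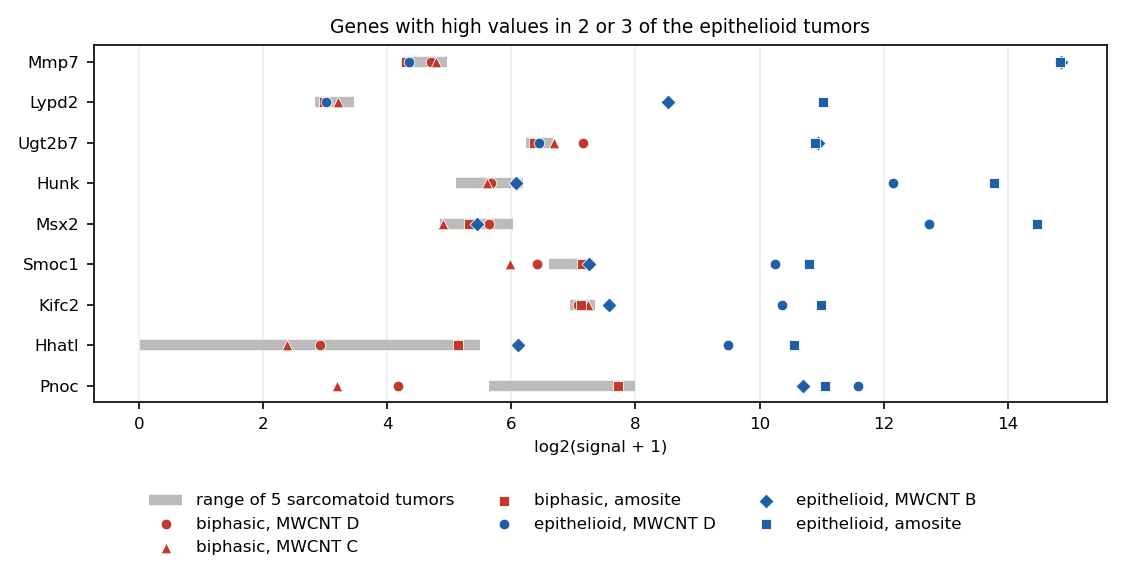
Log2(signal + 1) of 9 genes in each biphasic (red) and epithelioid (blue) tumor, with grey bars for the range of the 5 sarcomatoid tumors. Mmp7, Lypd2 and Ugt2b7 are high in the MWCNT B and amosite epithelioid tumors, Hunk, Msx2, Smoc1, Kifc2 and Hhatl are highest in the MWCNT D and amosite epithelioid tumors, and Pnoc is high in all 3.

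The window of 250 bases before to 50 bases after the start of Mmp7 is shown because Mmp7 had the largest differences between single tumors described here, and because AP-1, a transcription factor of the FOS and JUN families, is a known regulator of matrix metalloproteinase genes. The AP-1 motif TGANTCA, which reads the same on both strands, occurs 1 time in it (in capitals). Of all 33469 promoter windows in RefSeq of the GRCr8 assembly, 7.33% hold this motif.
Mmp7 (chr8:13132793-13133092, plus strand): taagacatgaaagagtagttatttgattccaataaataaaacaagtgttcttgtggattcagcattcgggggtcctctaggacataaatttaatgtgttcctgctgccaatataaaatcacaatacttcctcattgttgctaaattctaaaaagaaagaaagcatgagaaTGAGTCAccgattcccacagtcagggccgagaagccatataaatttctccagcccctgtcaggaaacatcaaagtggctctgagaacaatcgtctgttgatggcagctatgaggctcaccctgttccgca
Between the types, the AP-1 and immediate early genes had a median difference of 0.26 over 17 measured genes, with 0 called and 0 apart by more than 2-fold. Any part of AP-1 in the Mmp7 values was not tested.

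On the biphasic side, the largest difference was that of Ccl9, a chemokine for myeloid cells. It measured 9.80, 9.09 and 8.60 in the MWCNT D, MWCNT C and amosite biphasic tumors and 7.25, 6.10 and 4.29 in the MWCNT D, MWCNT B and amosite epithelioid tumors, a difference of 3.29 (95% interval 1.02 to 5.55). All 5 sarcomatoid tumors had at least 8.09, so that the 3 epithelioid tumors were the lowest of the 11 tumors. Prrx2, a homeobox gene of mesenchymal cells, measured 8.90, 9.30 and 10.87 against 6.79, 7.19 and 7.23 (difference 2.62, 95% interval 0.72 to 4.52), and the 3 biphasic values also exceeded every sarcomatoid value, which reached 8.46. The other probe set of Prrx2 differed by 0.20. Mcf2l gave 8.64, 9.69 and 10.65 against 6.89, 7.80 and 7.86 (difference 2.15), again above all sarcomatoid tumors, which reached 7.33. Jag1, a ligand of Notch receptors, gave 9.85, 10.61 and 10.33 against 8.42, 9.22 and 7.87 (difference 1.76, 95% interval 0.56 to 2.95). Since the sarcomatoid values of Jag1 reached 9.34, the 3 biphasic tumors were the highest of the 11 tumors for Prrx2, Mcf2l and Jag1.

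The other 8 leading genes of the biphasic tumors differed by 1.02 to 1.83. Adgrg6, an adhesion G protein-coupled receptor, differed by 1.83 and Hrct1 by 1.74 (1.30 without the amosite epithelioid tumor). Il18, a cytokine of the interleukin 1 family, measured 11.27, 11.74 and 10.62 in biphasic and 9.39, 10.3 and 9.49 in epithelioid tumors (difference 1.48, 95% interval 0.42 to 2.55). Snx10, a sorting nexin of endosomes, differed by 1.17, Osgin2 by 1.08, Aldh3a2, a fatty aldehyde dehydrogenase, by 1.06, and Dnajc12, a co-chaperone, by 1.02. Gbp2, the other gene, is described with the interferon response below. Within the amosite pair the difference was less than 2-fold for Snx10 (0.47), Aldh3a2 (0.25) and Dnajc12 (0.64).

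The differences within the 2 matched pairs had little in common. Across all probe sets, the difference within the MWCNT D pair and that within the amosite pair, which share no tumor, had a Pearson correlation of 0.05, and the difference between the MWCNT C biphasic and the MWCNT B epithelioid tumor had a correlation of 0.12 with the first and -0.19 with the latter. These values describe probe sets, which are not independent. The amosite pair holds the epithelioid tumor with pancreatic signal, and the part of tissue content in these correlations was not tested. More than 2-fold differences were found for 4432 probe sets in the MWCNT D pair and 6194 in the amosite pair. Of the 1833 that passed this fold in both, 1079 had the same direction (368 higher in biphasic, 711 higher in epithelioid) and 754 the opposite direction. Pnoc, Hunk, Smoc1, Hpgd and Oasl were among the genes with the same direction in both pairs. For these genes the types do not overlap, which by itself fixes the direction in each pair.

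**Figure D4:**
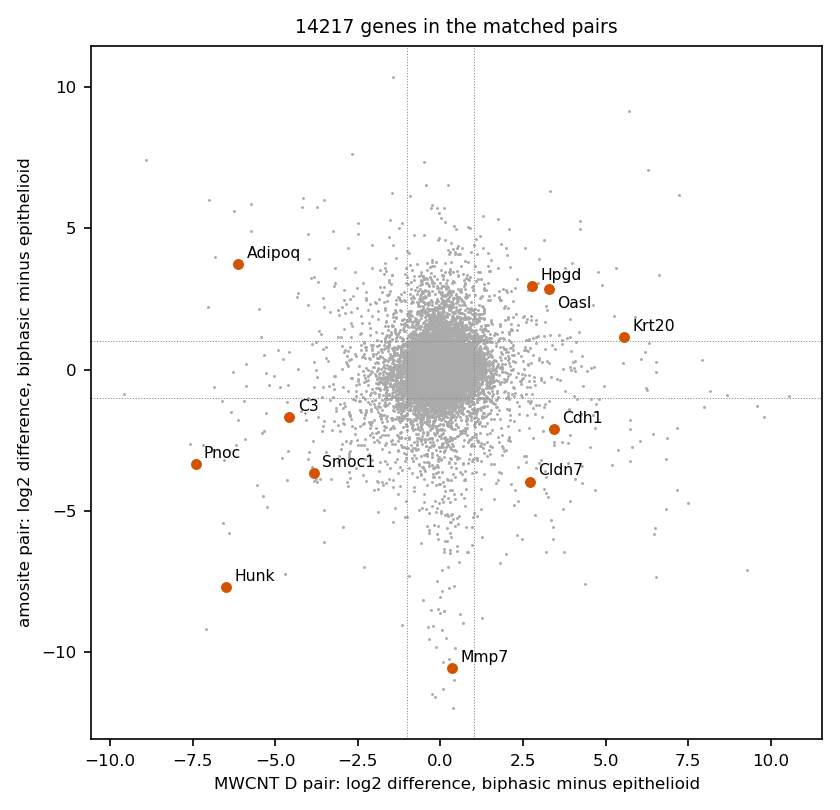
Difference in log2(signal + 1), biphasic minus epithelioid, within the MWCNT D pair (horizontal) and within the amosite pair (vertical) for 14217 genes, 1 point each, with dotted lines at a 2-fold difference. Pnoc, Hunk and Smoc1 lie at the lower left, Oasl and Hpgd at the upper right, Cdh1 and Cldn7 at the lower right, Adipoq at the upper left, and Mmp7 lies at the bottom, with a difference of -10.56 in the amosite pair and 0.35 in the MWCNT D pair.

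Mesothelial genes did not separate the types. Msln, mesothelin, a surface protein of mesothelial cells, measured 12.8, 13.38 and 13.03 in biphasic and 13.29, 13.06 and 12.83 in epithelioid tumors. The 6 values lay close together, and the sarcomatoid tumors had 7.92 to 11.61. The difference was 0.01 (95% interval -1.84 to 1.85), with an interval that includes the spread of the sarcomatoid tumors. Upk1b, a uroplakin of mesothelium and urothelium, differed by -0.02 (95% interval -2.32 to 2.29), or 0.08 with the arrays centred on their median, and Calb2, calretinin, by -0.18 (95% interval -0.61 to 0.26). Wt1, a transcription factor of mesothelial cells, measured 10.88, 11.77 and 11.61 in biphasic and 12.06, 11.68 and 13.39 in epithelioid tumors, a difference of -0.96 (95% interval -3.32 to 1.40), or -0.45 without the amosite epithelioid tumor. Calb2 measured 7.04 to 7.72 in the 6 tumors and 7.27 to 7.52 in the controls, so that its probe set did not separate tumors from control tissue. Over 13 measured mesothelial genes the median difference was -0.18, with 0 called and 0 apart by more than 2-fold. Aldh1a2, which makes retinoic acid, had the largest difference among these, with 7.95, 7.52 and 10.55 in biphasic and 11.31, 10.15 and 11.13 in epithelioid tumors (difference -2.19, 95% interval -4.14 to -0.25). The amosite biphasic tumor overlapped the epithelioid values. Efemp1, fibulin 3, measured 11.3, 13.42 and 12.37 against 11.51, 12.25 and 10.59, a difference of 0.91 (95% interval -0.59 to 2.40), or 0.48 without the amosite epithelioid tumor.

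Krt14, a keratin of basal epithelial cells, was high in every tumor of both types. It measured 12.13, 13.39 and 12.76 in biphasic and 12.03, 12.24 and 10.45 in epithelioid tumors, against 5.93 to 9.49 in sarcomatoid tumors. The types overlapped, with a difference of 1.19 (95% interval -0.68 to 3.06) over all and of 0.09 within the MWCNT D pair. All 6 keratins of simple epithelia had the higher mean in biphasic tumors, with a median difference of 0.99 and 0 apart by more than 2-fold. Within the amosite pair, however, Krt7 (-0.77), Krt8 (-0.40) and Krt19 (-2.55) were higher in the epithelioid tumor. Krt18 (0.17), Krt20 (1.16) and Krt23 (1.80) were higher in the biphasic tumor of that pair. The MWCNT D biphasic tumor had the highest list mean (12.24), against 9.39 to 10.50 in the other 5. Krt20 measured 12.41 in that tumor and 5.50 to 6.84 in the other 5, and Krt23 differed by 2.10 (95% interval -0.75 to 4.95), or 3.07 without the amosite epithelioid tumor.

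Cell junction genes also overlapped between the types, with few exceptions. Cdh1, E-cadherin, measured 13.06, 13.27 and 8.51 in the MWCNT D, MWCNT C and amosite biphasic tumors and 9.62, 11.05 and 10.62 in the MWCNT D, MWCNT B and amosite epithelioid tumors. Its highest and its lowest values were thus both biphasic, and the difference of 1.18 had a 95% interval of -1.81 to 4.18. Of 21 measured junction genes, 1 was apart by more than 2-fold, higher in epithelioid tumors (1.02% of all genes). This was Cldn3, a claudin of tight junctions, which measured 5.11, 4.64 and 4.72 against 5.63, 6.40 and 6.96 (difference -1.51, 95% interval -2.45 to -0.56), all low signals. Cldn7, another claudin, measured 6.74, 4.94 and 3.65 against 4.02, 9.07 and 7.61. Among epithelial transcription factors, Tp63 measured 8.49 in the MWCNT C biphasic tumor and 4.73 to 5.603 in the other 5. Cdh17, a cadherin of intestine, had 11.65, 10.33 and 6.65 in biphasic and 5.39, 8.87 and 7.36 in epithelioid tumors.

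Mesenchymal genes likewise overlapped. Vim, vimentin, the intermediate filament of mesenchymal and mesothelial cells, measured 13.29, 13.9 and 13.8 in biphasic and 13.86, 13.95 and 12.7 in epithelioid tumors, a difference of 0.16 (95% interval -0.77 to 1.10), or -0.24 without the tumors that carry pancreatic signal. Over 21 measured genes of mesenchymal cells and of epithelial to mesenchymal transition the median difference was 0.09, with 0 apart by more than 2-fold. Zeb2 and Twist2, both transcription factors of that transition, differed by 0.76 and 1.33 with intervals that held 0. Zeb2 measured 10.48, 10.11 and 11.15 in biphasic and 10.11, 10.41 and 8.93 in epithelioid tumors, and without the amosite epithelioid tumor its difference was 0.32. Lum, lumican, a collagen-binding proteoglycan, measured 13.64, 13.71 and 13.42 against 13.27, 13.35 and 11.93, which did not overlap but differed less than 2-fold (0.74, or 0.28 without the amosite epithelioid tumor). Mylk, myosin light chain kinase, was the 1 of 11 smooth muscle genes apart by more than 2-fold, higher in epithelioid tumors (1.02% of all genes). It measured 8.42, 9.50 and 9.10 against 10.69, 10.12 and 10.67 (difference -1.49, 95% interval -3.00 to 0.02). Cdh11, a mesenchymal cadherin, differed by -1.25 (95% interval -3.29 to 0.80), or -0.81 without the amosite epithelioid tumor.

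Of the 40 gene lists, the interferon response had the highest median difference, 1.49 over 16 measured genes, of which 15 had the higher mean in biphasic tumors, against a median of 0.01 over all genes. None was called, and 3 of 16 were apart by more than 2-fold, where the share of all genes apart in that direction was 0.57%. Oasl, a relative of the antiviral oligoadenylate synthetases, measured 10.43, 8.45 and 9.79 in biphasic and 7.16, 7.24 and 6.94 in epithelioid tumors (difference 2.45, 95% interval 0.56 to 4.33). Gbp2, a GTPase that interferons induce, measured 11.03, 10.03 and 11.3 against 9.70, 9.88 and 9.20 (difference 1.20, 95% interval 0.43 to 1.96). Isg15, a ubiquitin-like protein, named after its values were seen, measured 9.75, 8.85 and 11.97 against 8.02, 7.12 and 6.66 (difference 2.93, 95% interval 0.56 to 5.30). The 3 epithelioid tumors were below every biphasic tumor in all 3 genes, with a small gap for Gbp2 between the MWCNT C biphasic and the MWCNT B epithelioid tumor.

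The level of the list was uneven within the biphasic tumors. The list mean was 10.94 in the amosite biphasic tumor, 8.74 and 8.66 in the MWCNT D and MWCNT C biphasic tumors, and 8.48, 8.03 and 7.86 in the MWCNT D, MWCNT B and amosite epithelioid tumors. The sarcomatoid tumors ranged from 7.91 to 10.49. Cxcl10, a chemokine that interferon gamma induces, measured 8.53, 7.21 and 10.19 in biphasic and 7.38, 6.69 and 6.72 in epithelioid tumors (difference 1.71, 95% interval 0.13 to 3.29), with the MWCNT C biphasic tumor below the MWCNT D epithelioid tumor. Of the 13 genes of antigen presentation, 13 had the higher mean in biphasic tumors (median 0.71) and 0 were apart by more than 2-fold. Tap1, a peptide transporter of the class I pathway, measured 8.90, 8.73 and 9.68 against 8.24, 8.36 and 8.08 (difference 0.87, 95% interval 0.04 to 1.70), though its other probe set differed by -0.01.

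Promoter windows of Gbp2, Oasl and Cxcl10 are shown because interferons are known to induce these genes and their differences are given above. Interferon-stimulated genes are known for a response element that repeats GAAA, searched here as GAAANNGAA on both strands (in capitals, in either orientation). It occurs in 6 of the 11 measured interferon response genes with a promoter entry (54.5%) and in 9.71% of all 33469 windows. Gbp2 and Cxcl10 hold 1 match each and Oasl holds 0 in this window. All are from RefSeq on GRCr8 and run from 250 bases before the start of the gene to 50 bases after it.
Gbp2 (chr2:234005477-234005776, plus strand): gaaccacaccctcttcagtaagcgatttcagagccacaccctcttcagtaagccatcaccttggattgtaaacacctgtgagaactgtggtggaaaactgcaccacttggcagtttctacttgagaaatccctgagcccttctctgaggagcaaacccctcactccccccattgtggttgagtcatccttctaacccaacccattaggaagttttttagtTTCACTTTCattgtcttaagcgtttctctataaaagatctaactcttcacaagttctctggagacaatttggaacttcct
Oasl (chr12:47356243-47356542, minus strand): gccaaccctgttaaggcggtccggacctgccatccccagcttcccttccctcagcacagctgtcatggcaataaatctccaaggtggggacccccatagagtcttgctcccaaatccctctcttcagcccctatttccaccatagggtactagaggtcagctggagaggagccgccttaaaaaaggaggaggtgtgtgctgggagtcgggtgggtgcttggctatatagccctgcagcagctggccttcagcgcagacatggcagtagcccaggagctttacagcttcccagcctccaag
Cxcl10 (chr14:15988816-15989115, plus strand): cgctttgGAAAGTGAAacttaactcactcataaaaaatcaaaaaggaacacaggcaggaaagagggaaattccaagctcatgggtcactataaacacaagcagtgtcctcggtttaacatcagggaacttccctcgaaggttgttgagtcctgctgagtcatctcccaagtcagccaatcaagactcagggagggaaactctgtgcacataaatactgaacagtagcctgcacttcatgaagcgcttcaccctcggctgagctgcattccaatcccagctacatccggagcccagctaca

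Of 8 measured neutrophil genes 7 had the higher mean in epithelioid tumors (median -0.26), and 3 were apart by more than 2-fold. Of all genes, 51.5% had the higher mean in biphasic tumors and 1.02% were apart by more than 2-fold with higher values in epithelioid tumors. Lcn2, lipocalin 2, an iron-sequestering protein of neutrophils and inflamed epithelium, measured 7.17, 9.15 and 7.39 in biphasic and 10.93, 10.75 and 11.27 in epithelioid tumors (difference -3.08, 95% interval -5.83 to -0.33). S100a8, a subunit of calprotectin, measured 5.17, 5.18 and 4.33 against 6.59, 9.23 and 8.47 (difference -3.21, 95% interval -6.34 to -0.07). Its partner S100a9 gave 6.44, 7.20 and 6.28 against 7.48, 10.41 and 10.93 (difference -2.97). In all 3 genes every epithelioid tumor was above every biphasic tumor, with the MWCNT D epithelioid tumor the lowest of its type for S100a8 and S100a9. The sarcomatoid tumors ranged from 6.43 to 11.78 for Lcn2 and from 5.38 to 11.36 for S100a8, so that their highest values exceeded every epithelioid tumor. Their means of the neutrophil list ranged from 6.01 to 8.87. The other 5 genes of the list overlapped between the types, with differences of -0.27 to 0.25. None was called.

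Of 25 measured genes of the chemokine list, which also holds receptors, 4 were apart by more than 2-fold with higher values in epithelioid tumors (1.02% of all genes) and 1 with higher values in biphasic tumors (0.57%). The list does not include the CC chemokine Ccl9, given above, which was apart with higher values in biphasic tumors. Cxcl1, a neutrophil chemokine, measured 6.94, 8.22 and 7.61 in biphasic and 10.18, 9.39 and 8.58 in epithelioid tumors (difference -1.79, 95% interval -3.84 to 0.26). Cxcl6, also a ligand of neutrophil receptors, gave 7.21, 6.17 and 7.07 against 8.37, 9.0 and 8.82 (difference -1.91), and Cxcl2 5.46, 5.46 and 5.84 against 7.38, 6.94 and 6.16 (difference -1.24). Cxcl14, a chemokine of epithelia, gave 4.30, 3.79 and 5.70 against 6.60, 6.44 and 8.87 (difference -2.71, 95% interval -5.47 to 0.06, and -2.07 with the floor at a log2 signal of 5). The listed gene with higher values in biphasic tumors was Ccl17, a ligand of CCR4 on T cells (difference 1.21, 95% interval -1.11 to 3.52). The intervals of all 5 genes held 0, and the sarcomatoid tumors covered a wide range (4.52 to 11.53 for Cxcl2). S100a9, Cxcl1, Cxcl2, Cxcl6 and Ccl17 were named after their values were seen.

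Of 12 complement genes, 1 was apart by more than 2-fold on each side, where the shares of all genes were 0.57% higher in biphasic and 1.02% higher in epithelioid tumors. Complement C3 measured 8.79, 10.88 and 10.32 in biphasic and 13.36, 11.58 and 11.99 in epithelioid tumors (difference -2.32, 95% interval -4.33 to -0.30), above all sarcomatoid tumors, which reached 10.55. Cfi, complement factor I, named after its values were seen, measured 9.59, 9.78 and 8.45 against 7.72, 7.54 and 7.10 (difference 1.82, 95% interval -2.07 to 5.71). Cd55, an inhibitor of complement on the cell surface, differed by 1.45 (95% interval -0.63 to 3.53), or 2.11 without the amosite epithelioid tumor.

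Mast cell genes had the lowest median difference among the lists other than the pancreatic one, -2.50 over 11 measured genes, of which 10 had the higher mean in epithelioid tumors. The list mean was 4.70 and 4.79 in the MWCNT D and MWCNT C biphasic tumors, 6.04 in the MWCNT B epithelioid tumor, and 7.61 to 8.71 in the amosite biphasic, amosite epithelioid and MWCNT D epithelioid tumors. The types overlapped, and 0 genes were apart by more than 2-fold. Cpa3, a mast cell carboxypeptidase, measured 5.05, 6.08 and 9.39 in biphasic and 10.93, 7.56 and 9.96 in epithelioid tumors (difference -2.64, 95% interval -5.01 to -0.27). Cma1, a mast cell chymase, measured 2.06, 4.12 and 6.30 in biphasic and 8.01, 5.44 and 7.40 in epithelioid tumors, a difference of -2.79 (95% interval -5.08 to -0.50). The first 2 biphasic signals were low, and with the floor at a log2 signal of 5 the difference was -1.51. The 5 sarcomatoid tumors had list means of 7.48 to 8.95, above the 2 lowest biphasic tumors and the MWCNT B epithelioid tumor.

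Macrophage and lymphocyte lists did not separate the types. Of 16 measured macrophage genes 15 had the higher mean in biphasic tumors (median 0.42), and 0 were apart by more than 2-fold. The list means of the MWCNT C biphasic tumor (8.88) and the amosite epithelioid tumor (9.06) were both below those of the other 4 (10.32 to 11.47). Mrc1, the macrophage mannose receptor, measured 11.68, 9.01 and 12.17 against 10.24, 10.47 and 9.10, and Cd14, a coreceptor for lipopolysaccharide, measured 11.29, 11.41 and 11.1 against 10.95, 10.97 and 9.35. The difference of Cd14 was 0.85 (95% interval -0.47 to 2.16), but 0.31 without the amosite epithelioid tumor. All 14 measured T and NK cell genes had the higher mean in biphasic tumors, by a median of 0.33, with 0 apart by more than 2-fold. For B and plasma cells the median was 0.06, and for endothelial cells -0.13. Of 13 endothelial genes 2 were apart by more than 2-fold with higher values in epithelioid tumors (1.02% of all genes). Prox1, a transcription factor of lymphatic vessels named after its values were seen, differed by -1.27 (95% interval -4.09 to 1.55). Kdr, a receptor of VEGF, measured 9.79, 9.85 and 8.88 against 10.41, 10.15 and 11.32 (difference -1.12, 95% interval -3.16 to 0.92), but its other probe set differed by 0.11.

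In the WNT list 14 of 16 measured genes had the higher mean in epithelioid tumors, with a median difference of -0.44, and 2 were apart by more than 2-fold (1.02% of all genes in that direction). The list mean was 7.95, 7.18 and 7.79 in the biphasic and 8.19, 8.20 and 8.78 in the epithelioid tumors, without overlap. The 2 genes were Axin2, given above, and Wnt5b, a ligand, with 5.77, 6.81 and 4.07 in biphasic and 7.503, 8.40 and 8.16 in epithelioid tumors (difference -2.47, 95% interval -4.24 to -0.71). The sarcomatoid tumors had 6.69 to 9.25 for Wnt5b, so that the biphasic tumors were at or below their low end. Gpc3, a glypican that binds growth factors, measured 7.37, 4.44 and 8.16 against 11.2, 7.42 and 12.09 (difference -3.58, 95% interval -6.68 to -0.48), where the MWCNT B epithelioid tumor overlapped the biphasic values. Its other probe set differed by -0.09. Cd44, the hyaluronan receptor, went from 7.65 in the amosite epithelioid to 11.76 in the amosite biphasic tumor, with 10.5 and 9.14 in the other biphasic and 9.40 and 10.57 in the other epithelioid tumors. Tgfb3, a ligand of the TGF-beta family, measured 8.35, 10.59 and 9.52 against 10.61, 10.89 and 10.96 (difference -1.33, 95% interval -2.87 to 0.20). The TGF-beta list as a whole had a median of 0.03 and the Hippo list of 0.01, where Tead3, a TEAD transcription factor, differed by -0.66.

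Among receptor tyrosine kinases and ligands, 29 measured genes had a median difference of -0.13 and 1 was apart by more than 2-fold, higher in biphasic tumors (0.57% of all genes). This was Erbb3, a neuregulin receptor, with 6.30, 5.59 and 6.14 in biphasic and 4.38, 5.46 and 5.04 in epithelioid tumors (difference 1.05, 95% interval 0.01 to 2.09). These signals were low, and with the floor at a log2 signal of 5 the difference was 0.85, less than 2-fold. Between the MWCNT C biphasic and the MWCNT B epithelioid tumor Erbb3 differed by 0.13. Fgf18, a fibroblast growth factor, differed by -1.18 (95% interval -2.48 to 0.11). Of the proteases, Plau, the urokinase plasminogen activator, measured 13.21, 10.07 and 11.99 against 10.56, 10.42 and 9.18 (difference 1.71, 95% interval -0.04 to 3.46), a difference found in both matched pairs (2.65 and 2.82) but not between the MWCNT C biphasic and MWCNT B epithelioid tumors (-0.35). Spp1, osteopontin, measured 12.86, 11.64 and 12.52 against 12.77, 11.67 and 9.31, where the amosite epithelioid tumor was the low value.

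The prostaglandin list and the iron and antioxidant list each held 1 gene apart by more than 2-fold, higher in biphasic tumors (0.57% of all genes). Hpgd, which degrades prostaglandins, measured 8.06, 10.02 and 8.13 in biphasic and 5.28, 7.34 and 5.18 in epithelioid tumors. The difference of 2.80 (95% interval 0.53 to 5.07) was nearly the same within the MWCNT D pair (2.77), the amosite pair (2.95) and between the MWCNT C and MWCNT B tumors (2.67), and the other probe set of the gene differed by 2.77. It was the 1 of 14 genes of its list apart by more than 2-fold. Srxn1, sulfiredoxin, a target of the oxidative stress factor NRF2, was the 1 of 16 iron and antioxidant genes apart in this way, with 8.90, 10.02 and 9.06 against 8.31, 8.23 and 7.18 (difference 1.42, 95% interval -0.34 to 3.18). Its other probe sets differed by 0.04 and 1.02. Hypoxia and glycolysis genes had the higher mean in epithelioid tumors for 14 of 18 (median -0.35), among them Vegfa (difference -0.89, 95% interval -2.64 to 0.87). Slc34a2, a phosphate transporter of secretory epithelia, measured 3.45, 4.46 and 1.88 against 4.72, 6.80 and 6.27 (difference -2.67, 95% interval -4.82 to -0.52). These signals were low, and with the floor at a log2 signal of 5 the difference was -1.02.

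Proliferation genes overlapped between the types. All 21 measured mitosis genes had the higher mean in biphasic tumors, but the median difference was 0.43, with 0 called and 0 apart by more than 2-fold. The MWCNT D epithelioid tumor had the lowest list mean (8.42), and the other 5 tumors had 8.94 to 9.58. Plk1, a kinase of mitosis, differed by 0.82 (95% interval -0.41 to 2.05) and Foxm1, a transcription factor of mitotic genes, by 0.58 (95% interval -0.75 to 1.92), with 1.44 in the MWCNT D pair and -0.0034 in the amosite pair. Cdkn1a, the cell cycle inhibitor p21, measured 9.58, 9.83 and 9.40 in biphasic and 8.26, 9.19 and 8.43 in epithelioid tumors, which did not overlap but differed less than 2-fold (0.97, 95% interval 0.03 to 1.92). Over 12 tumor suppressors and cell cycle inhibitors the median was 0.06.

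Genes of neighbouring tissues varied from tumor to tumor beside these results. Over 11 adipocyte genes the list mean was 5.32, 5.66 and 5.95 in the MWCNT D biphasic, MWCNT C biphasic and amosite epithelioid tumors, and 9.36, 10.17 and 9.98 in the MWCNT D epithelioid, MWCNT B epithelioid and amosite biphasic tumors. Fat tissue genes were thus low in 2 biphasic and 1 epithelioid tumor. Adipoq, adiponectin, measured 4.30, 5.48 and 11.46 in biphasic and 10.43, 11.27 and 7.72 in epithelioid tumors. Of 16 acinar pancreas genes, 15 had the higher mean in epithelioid tumors, with the amosite tumor at 14.04 as given above. Skeletal muscle genes were at 5.35 to 5.84 in all 6 tumors, against 14.38 to 14.43 in the controls. The part of fat, pancreas and immune cells in the differences described above was not tested. Without both tumors that carry pancreatic signal, limma called 0 probe sets, and Pnoc differed by -6.12.

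**Figure D5:**
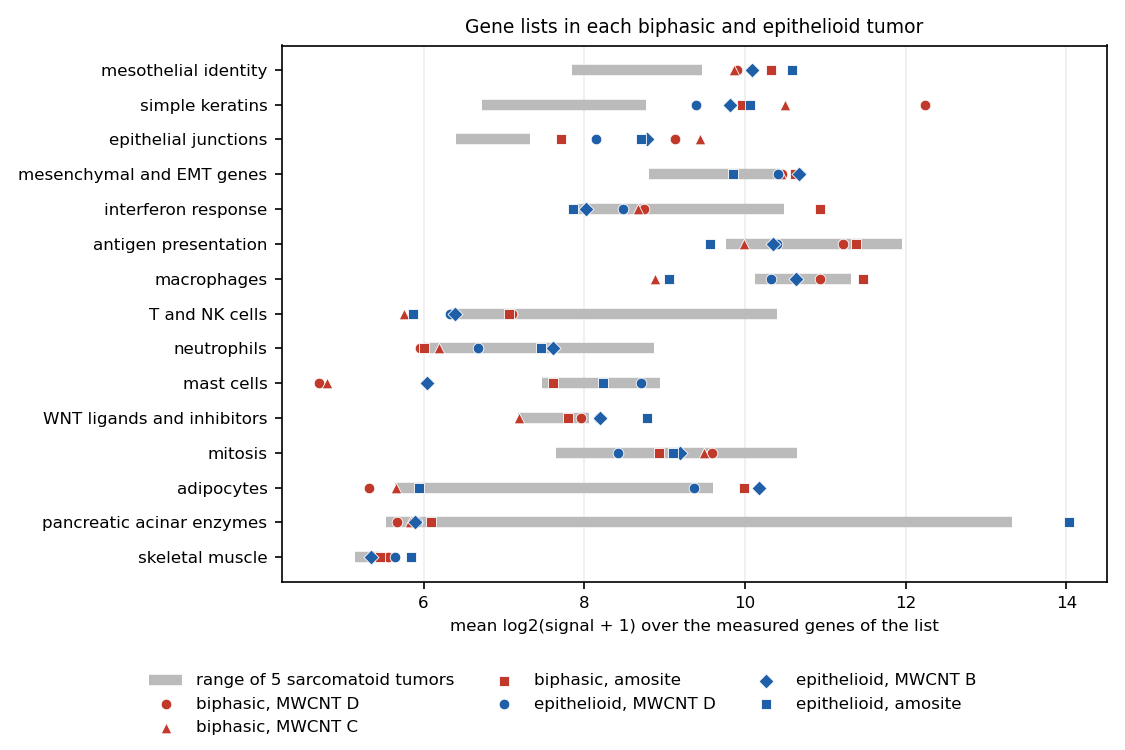
Mean log2(signal + 1) over the measured genes of 15 lists in each biphasic (red) and epithelioid (blue) tumor, with grey bars for the range of the 5 sarcomatoid tumors. The types overlap in most lists, the neutrophil and WNT lists are higher in all 3 epithelioid tumors, the interferon list is higher in all 3 biphasic tumors, the amosite biphasic tumor leads the interferon response at 10.94, and the amosite epithelioid tumor stands at 14.04 for pancreatic enzymes.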

How the data were processed

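Total RNA of each tissue was amplified and biotin-labelled with a 3' in vitro transcription kit and hybridized to 1 Affymetrix GeneChip Rat Genome array. The authors normalized the intensities with PLIER in the Transcriptome Analysis Console, and the deposited table holds linear intensity values of 31099 probe sets with 0 other value columns. After removal of 57 control probe sets, log2(signal + 1) was used without further normalization. Symbols came from the array annotation, updated by gene ID through a RefSeq table (20758 of 20826 probe sets with 1 symbol matched, 436 had several symbols and 9780 none), and a gene is its probe set of highest mean signal over all arrays among the 14217 genes. PLIER brings probe sets near background close to 0, so that differences between low signals can be exaggerated.

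The 11 tumors were fitted in 3 type groups with limma 3.58.1 (R 4.3.3), and the contrast biphasic minus epithelioid was tested with Benjamini-Hochberg adjustment over 31042 probe sets. The spread includes that of the 5 sarcomatoid tumors. Exact permutation of 3 against 3 tumors cannot go below p = 0.1 and was not used. The method was tested on simulated data. Python 3.11.15, pandas 2.3.3 and matplotlib 3.10.9 were used for tables and figures.

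Genes were named by a rule: on each side the 12 genes of smallest moderated p among those with a fold above 2, values that do not overlap and a mean of at least 8 in the higher group (0 were called), up to 2 genes of smallest p from each of 40 gene lists, and 11 chosen genes. Of these 11, no probe set was annotated to Cldn15 or Upk3b alone, so the planned ratio of Cldn15 to Vim was not computed. The members, the genes and the lists were chosen with earlier results of these data known. The list of genes the study names was chosen by the study on these samples. Its 30 measured genes had a median difference of 0.10, and 1 was apart by more than 2-fold, higher in biphasic tumors (0.57% of all genes). Alternatives covered the samples and covariates in the fit, normalization, filter, floor, pseudocount, moderation, thresholds, the unit counted, the probe set of a gene and leaving out each tumor. Leaving out the 2 tumors with pancreatic signal was added after the data had been seen.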

Additional observations from a re-analysis of the deposited data

Results flagged for a closer look

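The following results ran in opposite directions, by more than 2-fold each, in the 2 pairs of tumors matched by inducer. Each pair holds 1 biphasic and 1 epithelioid tumor, so the difference between the pairs was not tested. Values are log2 differences, biphasic minus epithelioid. Cdh1, E-cadherin, differed by 3.44 in the MWCNT D pair and by -2.11 in the amosite pair, 5.55 between the pairs. Cldn7, a claudin, differed by 2.71 and -3.96, which is 6.68 between the pairs. Adipoq, adiponectin, differed by -6.12 and 3.74, which is -9.86 between the pairs. The mean of the adipocyte genes differed by -4.04 and 4.04, which is -8.07 between the pairs. The mean of the intestine genes differed by 2.26 and -1.18, which is 3.44 between the pairs. For these genes and lists, the order of the types in 1 pair does not carry over to the other, and the inducer, the rat and the sample taken cannot be told apart.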

How the results depend on the processing

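The count of called probe sets was 0 in the 11 tumors and 0 under 19 of 22 alternatives. Leaving out each of the 6 tumors gave 0 to 12 calls: 12 without the MWCNT B epithelioid tumor, 3 without the MWCNT D epithelioid tumor and 3 without the amosite biphasic tumor. Of 1173 differences of 89 named genes under the other alternatives, none passed the test, 1166 kept their direction and 7 did not. Msln differed by -0.036 with inducer as a covariate, -0.15 with only the matched inducers and -0.11 without both tumors with pancreatic signal, Vim by -0.24 without these tumors, Upk1b by 0.08 with arrays centred on their median, and, with signals below a log2 value of 5 raised to it, the probe set of Brinp2 by 0.10 and Myh13 by 0. On leaving out a tumor, 4 genes changed direction: Msln ranged from -0.15 to 0.14, Calb2 from -0.32 to 0.013, Vim from -0.24 to 0.39 and Upk1b from -0.36 to 0.31. No paired analysis was possible because the replicate numbers in the titles, given within each inducer, are not shared by biphasic and epithelioid tumors, and inducer as a covariate took its place. The ratio of Cldn15 to Vim and its alternatives were not run. With 3 tumors of each type and no detection calls, low signals such as those of Cldn3 and Slc34a2, and of Lypd2 in the MWCNT D epithelioid and the biphasic tumors, cannot be set against background, so the size of the differences that rest on them is not fixed.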
